A study of Mus musculus with 8 samples.

Results

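Interferon-stimulated genes are described here in the cerebral cortex of mouse embryos labelled Taf8-deleted or Taf8-intact. The set holds 9 genes, Isg15, Usp18, Oasl2, Irf7, Bst2, Ifitm3, Ifit1, Ifit3 and Rtp4, which were taken by symbol from a deposited matrix of 27179 genes, and all 9 were found there. RNA came from 4 Taf8-deleted embryos, labelled Taf8 -/lox, and 4 Taf8-intact embryos, labelled Taf8 +/+, with 1 library per embryo. The deleted embryos thus carry 1 null and 1 loxP-flanked allele and the intact embryos neither. The sources used here give neither the recombinase and the cells it acts in, nor the embryonic stage or strain. Taf8 encodes a subunit of TFIID, the factor that places RNA polymerase II at core promoters.

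Interferons are cytokines that cells release when they sense viral or misplaced nucleic acid. Binding to their receptors activates JAK kinases, which phosphorylate STAT proteins. STAT proteins, together with IRF9, then bind interferon-stimulated response elements in promoters and raise the transcription of antiviral genes. In the brain such genes are kept at a low basal level without infection, and many cell types can raise them.

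The libraries held 39590959 to 44788200 counts, and levels are given as CPM, that is, counts scaled to library size. A gene with 0 counts could still have been present at up to 3 counts, or 0.0670 to 0.0758 CPM. This floor uses the raw library totals, whereas the other CPM use adjusted totals, so the scales differ slightly. Taf8 itself averaged 0.495 ± 0.187 CPM in deleted and 32.6 ± 2.07 CPM in intact cortex (SD, n = 4 each). All 8 markers of cortical cells, Emx1 and Tbr1 among them, passed the filter on low counts. Of these, 2 rose and 5 fell, or 25% and 62.5%, against 30.6% and 32.9% of all genes tested. The 8 summed to 1931 to 2030 CPM in deleted and 2381 to 2452 CPM in intact libraries. Of the deleted embryos, each has its own animal number before the point (456.1, 472.1, 477.1 and 486.1), whereas 3 intact embryos share theirs (408.4, 408.5, 408.6 and 409.2). What that number marks is not stated, and it cannot be told apart from genotype. Beside the genotypes, the libraries differed in markers of tissue around the cortex: summed choroid plexus markers ran from 2.29 to 930.4 CPM in deleted and from 4.31 to 296.5 CPM in intact libraries. Without the library highest in these markers in each group, deleted replicate 1 and intact replicate 4, the same 7 members were called higher as with all libraries. Over all genes, 4524 were then called higher and 4611 lower. This comparison was added after seeing the data and did not balance the markers. The sums left were 54.64, 148.2 and 2.29 CPM in deleted and 5.86, 4.31 and 13.46 CPM in intact libraries.

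Most of the 9 genes were higher in Taf8-deleted cortex, and among the 8 that could be fitted the fold change was largest for Usp18 and then Isg15. Usp18 had few counts in intact cortex and passed the filter on low counts through its deleted libraries. Of the 9, 8 passed the filter on low counts, 7 of these rose by edgeR's quasi-likelihood test and none fell. Ifit3 did not pass the threshold, and Ifit1 had too few counts to be fitted. Over all genes tested, 30.6% were called higher and 32.9% lower at an adjusted p under 0.05. That balance turned with other scalings, to 5837 genes higher and 4480 lower with upper-quartile factors and 5894 and 4416 with library totals, while 7 members were called higher under each. Among the 3183 genes within the members' range of mean level, 31.2% were called higher. The median log2 fold change of the 8 genes fitted was 0.99, against 0.00 over all 16074 genes tested. The 9 genes together had 968, 827, 989 and 526 counts in deleted replicates 1 to 4, against 345, 299, 260 and 408 in intact replicates 1 to 4. The summed counts of every deleted library were thus above those of every intact one, with deleted replicate 4 the lowest of its group and intact replicate 4 the highest of its own. Taken singly, the libraries of 4 members did not overlap between the genotypes, which 27.6% of all genes tested also showed in this direction. No member lay lower without overlap, which 30.1% of genes tested did. At least a 2-fold rise with an adjusted p under 0.05 was seen in 4 members and in 5.37% of genes tested. In bulk tissue, more cells that express a gene and more RNA per cell cannot be told apart.

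**Figure D1:**
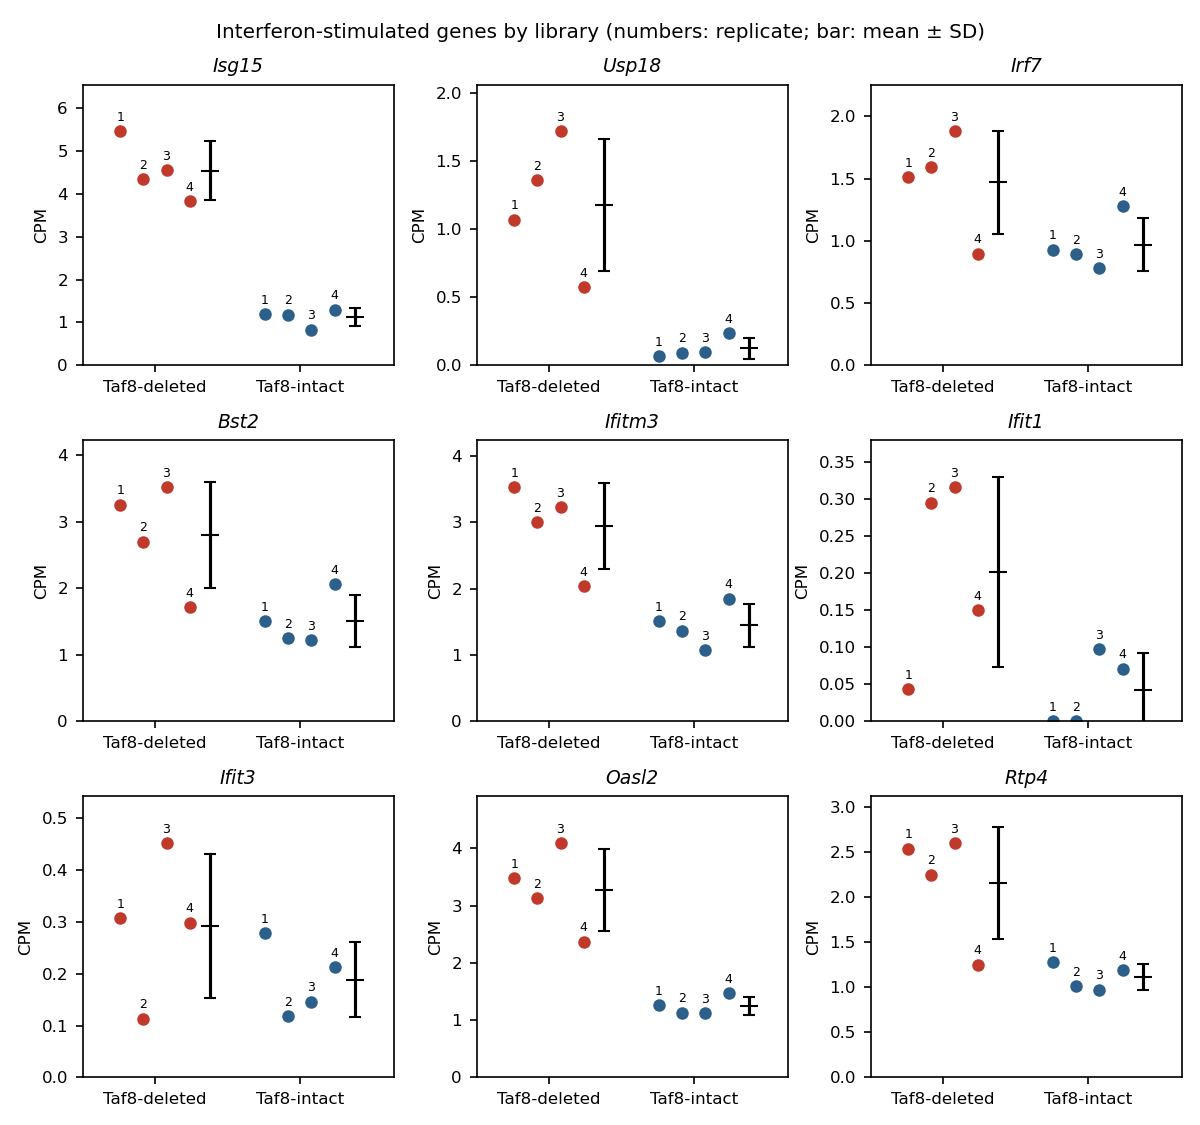
Levels of the 9 genes in CPM (vertical axis, linear, from 0) in each Taf8-deleted and Taf8-intact library; numbers give the replicate, and bars the mean ± SD over 4 libraries (cut at 0 for Ifit1). The groups do not overlap for Isg15, Usp18, Ifitm3 and Oasl2, and deleted replicate 4 is the lowest deleted library for 7 of the 9 genes.

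The promoters of several members hold the core letters of the interferon-stimulated response element. RefSeq promoter windows of 300 bases (250 before and 50 after the start site, assembly GRCm38.p6) were at hand for 7 members and were searched on both strands for the element's core, GAAA followed after any 2 bases by a second GAAA. It was found in 5 of the 7, namely Isg15, Bst2, Ifitm3, Ifit1 and Ifit3, where 3.44% of all 32851 windows of this length hold it. The windows of Irf7 and Oasl2 had no match, which says only that these letters are not in these windows. The 5 windows shown are those of Isg15, with 3 overlapping matches, of Bst2, with 2 overlapping ones, of Ifit3, and of Ifitm3 and Ifitm2, genes of the same cluster which changed in opposite directions. They are written 5′ to 3′ along the gene, and capitals mark the matches on either strand.

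Isg15 promoter window, chr4:156200769-156201068, minus strand: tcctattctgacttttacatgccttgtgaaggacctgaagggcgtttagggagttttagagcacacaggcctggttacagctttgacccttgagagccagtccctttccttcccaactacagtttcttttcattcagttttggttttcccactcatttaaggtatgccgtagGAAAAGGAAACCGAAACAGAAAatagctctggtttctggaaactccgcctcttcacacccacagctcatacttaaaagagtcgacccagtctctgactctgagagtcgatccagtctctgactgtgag
Bst2 promoter window, chr8:71537423-71537722, minus strand: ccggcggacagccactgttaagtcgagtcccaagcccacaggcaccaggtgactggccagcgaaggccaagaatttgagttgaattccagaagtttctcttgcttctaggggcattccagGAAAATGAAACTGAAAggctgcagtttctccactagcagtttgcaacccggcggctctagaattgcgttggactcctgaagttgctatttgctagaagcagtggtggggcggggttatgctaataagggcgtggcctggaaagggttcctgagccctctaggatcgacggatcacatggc
Ifit3 promoter window, chr19:34583279-34583578, plus strand: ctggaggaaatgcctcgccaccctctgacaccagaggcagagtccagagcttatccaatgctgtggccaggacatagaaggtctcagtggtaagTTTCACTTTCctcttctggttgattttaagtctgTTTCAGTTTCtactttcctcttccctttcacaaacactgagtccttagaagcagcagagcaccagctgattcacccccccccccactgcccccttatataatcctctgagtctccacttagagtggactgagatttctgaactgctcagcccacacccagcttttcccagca
Ifitm3 promoter window, chr7:141010695-141010994, minus strand: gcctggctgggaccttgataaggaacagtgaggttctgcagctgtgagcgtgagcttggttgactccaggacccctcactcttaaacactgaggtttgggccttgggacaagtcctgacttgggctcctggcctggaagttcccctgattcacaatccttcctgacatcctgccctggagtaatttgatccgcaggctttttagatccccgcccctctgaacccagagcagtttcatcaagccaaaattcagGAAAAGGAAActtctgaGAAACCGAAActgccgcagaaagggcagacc
Ifitm2 promoter window, chr7:140955912-140956211, minus strand: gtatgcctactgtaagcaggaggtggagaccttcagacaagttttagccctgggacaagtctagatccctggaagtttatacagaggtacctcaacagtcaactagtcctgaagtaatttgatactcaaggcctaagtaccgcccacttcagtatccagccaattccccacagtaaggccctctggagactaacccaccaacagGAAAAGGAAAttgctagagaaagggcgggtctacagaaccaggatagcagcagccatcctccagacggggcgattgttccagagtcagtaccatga

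Matches began 78, 72 and 66 bases before the start site in Isg15 and 130 and 124 bases before it in Bst2, in each case sharing bases with the next match. In Ifit3 they began 156 and 122 bases before the start, and in Ifit1 104 and 85 bases before it, in both genes on the opposite strand. Those of Ifitm3 lay just after the start, from bases 3 and 20, and the single match of Ifitm2 began 46 bases before it. A match is a description of the letters, not a bound site. Among tested genes with a window, 34.1% of the 428 genes with a match were called higher, against 30.8% of the 11717 without one. The shares called lower were 28.7% with a match and 33.8% without.

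**Figure D2:**
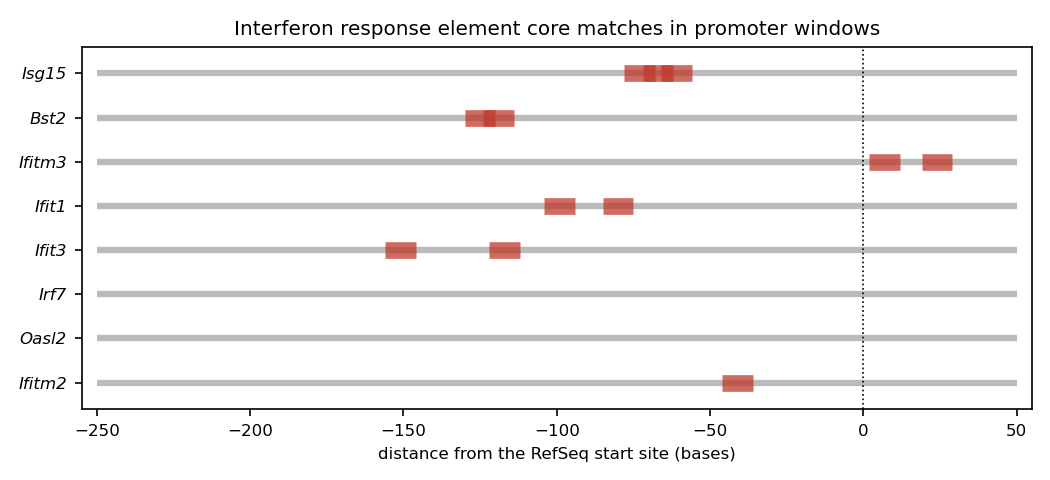
Matches to the response element core (red bars, 10 bases each) in the promoter windows of 7 members and of Ifitm2, by distance from the RefSeq start site in bases (dotted line, 0). Isg15 and Bst2 hold overlapping matches before the start, Ifitm3 holds its 2 after it, and Irf7 and Oasl2 hold none.

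Among the members fitted, the ubiquitin-like modifier and its protease had the largest fold changes. Isg15 (gene ID 100038882, chromosome 4, 156199424 to 156200818) encodes a ubiquitin-like protein that is attached to other proteins during an interferon response. It had 5.45, 4.33, 4.54 and 3.82 CPM in deleted replicates 1 to 4, against 1.19, 1.18, 0.827 and 1.30 CPM in intact replicates 1 to 4. Every deleted library lay above every intact one, and the lowest deleted library, replicate 4, was still well clear of the highest intact one. Isg15 was 4.03-fold higher, with a log2 fold change of 2.01 ± 0.16 (SE; edgeR quasi-likelihood, adjusted p = 4.97e-07).

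Usp18 (gene ID 24110, chromosome 6, 121245906 to 121270917) encodes the protease that removes ISG15 from proteins and that also dampens signalling at the type I interferon receptor. It had 49, 60, 76 and 23 counts in the deleted libraries, against 3, 4, 4 and 10 in the intact ones. On the CPM scale this is 1.18 ± 0.483 in deleted and 0.125 ± 0.0760 in intact cortex (SD, n = 4 each). Replicate 4 was the lowest deleted and the highest intact library, and the groups still did not overlap. The log2 fold change was 3.22 ± 0.42 (SE), with adjusted p = 3.94e-05 in edgeR's test, and a 95% interval of 2.30 to 4.15. The intact libraries held 21 counts of Usp18 in all, so the gene passed the filter on low counts through its deleted libraries. A stricter filter on CPM left it out. An exon of the gene model Gm44148 overlaps Usp18 on the opposite strand, and unstranded reads cannot separate them.

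The other enzymes of ISG15 conjugation moved less. Uba7, the activating enzyme, rose by 1.17 ± 0.30 on the log2 scale (SE), and the ligase genes Herc6 and Trim25 rose by 0.42 ± 0.09 and 0.31 ± 0.11. Ube2l6, the conjugating enzyme, went the other way and fell to 5.03 ± 0.194 CPM in deleted cortex, against 6.06 ± 0.357 CPM in intact cortex (SD, n = 4 each). All 4 genes of this list thus passed the threshold, 3 of them higher. Over all genes tested, 63.5% were called in either direction and 30.6% higher. The Uba7 libraries overlapped between the groups, with deleted replicate 4 at 0.673 CPM and intact replicate 4 at 0.711 CPM. Herc6, Uba7 and Ube2l6 had adjusted p of 0.00163, 0.00510 and 0.0121 in edgeR's test, and Trim25 of 0.0300.

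An RNA-binding antiviral protein and a transcription factor gene of the pathway rose. Oasl2 (gene ID 23962, chromosome 5, 114896926 to 114912245) belongs to the oligoadenylate synthetase family, whose founding members sense double-stranded RNA. It had 3.48, 3.13, 4.09 and 2.37 CPM in the deleted libraries, against 1.26, 1.13, 1.12 and 1.47 CPM in the intact ones. The groups did not overlap, and the gene rose by 1.39 ± 0.18 on the log2 scale (SE; adjusted p = 2.44e-05, edgeR). Irf7 (gene ID 54123, chromosome 7, 141263183 to 141266499) encodes a transcription factor that amplifies interferon production. It had 1.51, 1.59, 1.88 and 0.898 CPM in the deleted libraries, against 0.930, 0.895, 0.779 and 1.28 CPM in the intact ones. Deleted replicates 1 to 3 lay above every intact library, but deleted replicate 4 lay among them.

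The call of Irf7 was marginal. Its log2 fold change was 0.60 ± 0.23 (SE), with adjusted p = 0.0413 in edgeR's test. Leaving out any 1 of deleted replicates 1 to 3 or intact replicates 1 to 3 gave adjusted p of 0.0668 to 0.122, so the call is lost without any of them. An exon of Phrf1 overlaps Irf7 on the opposite strand.

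The genes of 2 membrane proteins that act on viruses, Ifitm3 and Bst2, rose. Ifitm3 (gene ID 66141, chromosome 7, 141009590 to 141010744) encodes a membrane protein that keeps viruses from fusing with endosomes. Its libraries stood at 3.53, 3.00, 3.23 and 2.04 CPM after deletion, against 1.51, 1.37, 1.07 and 1.85 CPM with intact Taf8. Deleted replicate 4 lay just above intact replicate 4, the closest pair, and the groups did not overlap (log2 fold change 1.02 ± 0.20 SE, adjusted p = 0.000687, edgeR). Bst2 (gene ID 69550, chromosome 8, 71534255 to 71537472) encodes tetherin, which holds budding viruses at the cell surface. Its libraries stood at 3.26, 2.70, 3.52 and 1.72 CPM after deletion, against 1.51, 1.25, 1.22 and 2.06 CPM with intact Taf8. Here deleted replicate 4 lay below intact replicate 4, and the log2 fold change was 0.89 ± 0.24 (SE; adjusted p = 0.00578, edgeR).

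Rtp4 (gene ID 67775, chromosome 16, 23520219 to 23614222) encodes a Golgi chaperone of G protein-coupled receptors that is also induced by interferon. It had 116, 99, 115 and 50 counts in the deleted libraries, against 55, 43, 40 and 50 in the intact ones. Deleted replicates 1 to 3 were all above the intact range, and deleted replicate 4 was inside it. The log2 fold change was 0.96 ± 0.22 (SE), with adjusted p = 0.00231 in edgeR's test. The gene model Gm45338 shares exon sequence with Rtp4 on the same strand. In RefSeq the span of Rtp4 also overlaps that of Masp1, which had 26563 counts over all libraries. No exon overlap of Rtp4 with Masp1 was found in GENCODE.

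Of the IFIT genes, whose proteins bind foreign RNA, the members Ifit1 and Ifit3 were near the limit of detection. Ifit1 (gene ID 15957, chromosome 19, 34640889 to 34650009) had 2, 13, 14 and 6 counts in the deleted libraries, against 0, 0, 4 and 3 in the intact ones. Deleted replicate 1 fell within the intact range and the other deleted libraries above it. The mean was 0.201 ± 0.128 CPM in deleted and 0.0421 ± 0.0498 CPM in intact cortex (SD, n = 4 each), with p = 0.0857 in a two-sided exact permutation test, where 4 against 4 libraries can give no p below 0.0286. Ifit3 (gene ID 15959, chromosome 19, 34583119 to 34588982) had 14, 5, 20 and 12 counts in the deleted libraries, against 12, 5, 6 and 9 in the intact ones. Deleted replicates 1, 3 and 4 lay above every intact library in CPM and deleted replicate 2 below them, with a log2 fold change of 0.62 and a 95% interval from -0.28 to 1.52 (adjusted p = 0.208, edgeR). Without deleted replicate 2, which had as few counts as the lowest intact library, the value was 0.90 and passed the threshold (adjusted p = 0.0458, edgeR).

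Close relatives share sequence with these genes, so their reads may have been split. Ifit3b, the near-copy of Ifit3, had 5, 2, 5 and 1 counts in the deleted libraries, against 0, 0, 1 and 1 in the intact ones. Adding it to Ifit3 gave a log2 fold change of 0.86 that did not pass the threshold (adjusted p = 0.0772, edgeR). Adding Ifit1bl1 and Ifit1bl2 to Ifit1 gave 0.57 (adjusted p = 0.218, edgeR).

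The Ifit and Ifitm clusters each held a gene that fell. With all libraries fitted after the filter, genes called higher were found only in the Ifitm cluster. In the Ifit cluster on chromosome 19, Ifit2 fell to 277, 254, 278 and 230 counts in the deleted libraries, against 623, 593, 529 and 566 in the intact ones. Its log2 fold change was -1.20 ± 0.07 (SE; adjusted p = 2.66e-08, edgeR), and its libraries did not overlap, in contrast to those of Ifit1 and Ifit3. In the Ifitm cluster on chromosome 7, Ifitm2 fell to 4.66 ± 0.401 CPM in deleted cortex, against 11.4 ± 1.18 CPM in intact cortex (SD, n = 4 each; log2 fold change -1.29 ± 0.09 SE, adjusted p = 2.06e-07, edgeR). Per length of transcript, Ifitm3 was at 4.55 and Ifitm2 at 7.43 CPM per kilobase in deleted cortex, against 2.24 and 18.2 CPM per kilobase in intact cortex. Ifitm1, which lies between them and is named after its values were seen, had 10, 20, 30 and 11 counts in the deleted libraries, against 6, 4, 6 and 13 in the intact ones (log2 fold change 1.23 ± 0.44 SE, adjusted p = 0.0275, edgeR). Ifitm2 shares a same-strand exon overlap with the gene model Gm45717.

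Per length of transcript, the order of the members differed between genotypes. In deleted cortex Isg15 stood first at 6.0 CPM per kilobase, followed by Ifitm3 at 4.55, Bst2 at 3.64, Rtp4 at 1.37, Oasl2 at 1.04, Irf7 at 0.790, Usp18 at 0.667, Ifit3 at 0.147 and Ifit1 at 0.0763. In intact cortex Ifitm3 stood first at 2.24 CPM per kilobase, followed by Bst2 at 1.96, Isg15 at 1.49, Rtp4 at 0.707, Irf7 at 0.522, Oasl2 at 0.397, Ifit3 at 0.0946, Usp18 at 0.0704 and Ifit1 at 0.0160. Most neighbours in these orders overlapped over their libraries. The gaps between neighbours without overlap were those after Bst2 and after Usp18 in deleted cortex, and those after Isg15, after Oasl2 and after Usp18 in intact cortex. Isg15 was above Bst2 in all 4 deleted libraries and below it in all 4 intact ones.

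**Figure D3:**
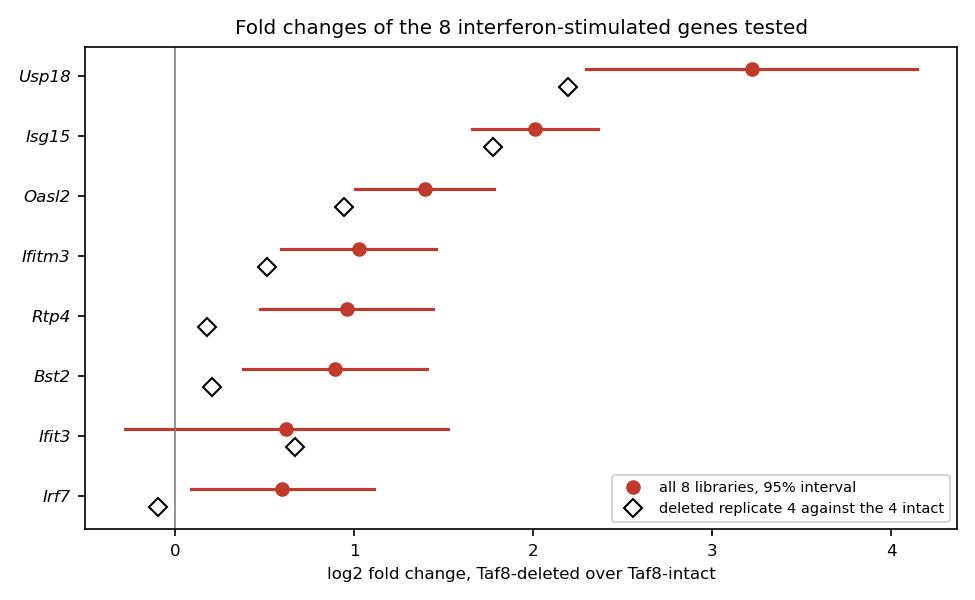
Log2 fold changes, Taf8-deleted over Taf8-intact, of the 8 members that were fitted: red points and lines, all 8 libraries with the 95% interval; open diamonds, deleted replicate 4 alone against the 4 intact libraries. Usp18, Isg15 and Oasl2 keep values of 2.19, 1.78 and 0.94 in deleted replicate 4, and Irf7 is at -0.10.

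The members differed when the deleted library with the fewest meningeal and choroid plexus markers was taken by itself. Deleted replicate 4 had 19.8 CPM of 10 summed meningeal markers, within the intact range of 17.2 to 40.9 CPM, whereas deleted replicates 1 to 3 had 69.4, 123.1 and 152.0 CPM. Its endothelial markers, at 198.4 CPM, and pericyte markers, at 242.4 CPM, nevertheless lay above every intact library. In that library 6 of the 9 members lay above every intact library in CPM, namely Isg15, Usp18, Oasl2, Ifitm3, Ifit1 and Ifit3. Irf7, Bst2 and Rtp4 lay inside the intact range. Ifit1 and Ifit3 were above it on only 6 and 12 counts, and intact replicate 1 also had 12 counts of Ifit3. The share of all genes tested that lay above every intact library in deleted replicate 4 was not counted. It includes at least the 27.6% whose 4 deleted libraries all lay above the intact ones. Set against the intact mean, Isg15 was at 3.39 times, Usp18 at 4.60 times and Oasl2 at 1.90 times it, but Bst2 at 1.14, Rtp4 at 1.12 and Irf7 at 0.924 times. Only this deleted library was then fitted against the 4 intact ones, a comparison added after seeing the data. The lone library was assumed to vary like the intact ones. The log2 fold changes were 1.78 for Isg15, 2.19 for Usp18 and 0.94 for Oasl2. They were 0.67 for Ifit3, 0.51 for Ifitm3, 0.20 for Bst2, 0.18 for Rtp4 and -0.10 for Irf7.

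Leaving libraries out in other ways changed less. Without replicate 4 of both groups, 7 members were again called higher, where 4693 genes in all were called higher and 5015 lower. Without deleted replicates 2 and 3, which had the most meningeal markers, 5 members were called, and Bst2 and Irf7 were lost (adjusted p of 0.0617 and 0.366, edgeR). Over all genes, 4219 were then called higher and 4666 lower.

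Markers of several cell types around or within the cortex also differed between the genotypes. The cortical neuron marker Neurod6, chosen after its values were seen, fell to 191 ± 18.4 CPM in deleted cortex, against 482 ± 25.5 CPM in intact cortex (SD, n = 4 each), and the cortical marker sums given above did not overlap. For comparison, 30.6% of all genes tested were called higher and 32.9% lower. Of 10 meningeal markers 9 were tested and 6 rose, and Lum was at 0 in 1 intact library. The 10 summed to 19.8 to 152.0 CPM in deleted and 17.2 to 40.9 CPM in intact libraries. Of 9 endothelial markers 8 rose, with sums of 198.4 to 248.2 CPM in deleted and 173.0 to 180.9 CPM in intact libraries. All 8 pericyte markers rose, with sums of 242.4 to 283.0 CPM in deleted and 202.3 to 223.3 CPM in intact libraries. Of 14 microglia and macrophage markers 13 were tested, 5 rose and 1 fell, or 38.5% higher against 30.6% of all genes tested, with sums of 50.5 to 65.8 CPM in deleted and 50.04 to 57.41 CPM in intact libraries. None of the 6 choroid plexus markers passed the threshold. Of 7 haemoglobin and other red cell markers 3 rose, or 42.9%. The 7 summed to 180.1 to 237.8 CPM in deleted and 135.9 to 185.5 CPM in intact libraries. Among 7 markers of lymphoid and other myeloid cells, the T cell gene Cd3e and the natural killer cell gene Ncr1 were at 0 in all libraries, and 1 gene, Siglech, was tested and did not pass. The part of these cell types in the rise of the members was not tested.

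**Figure D4:**
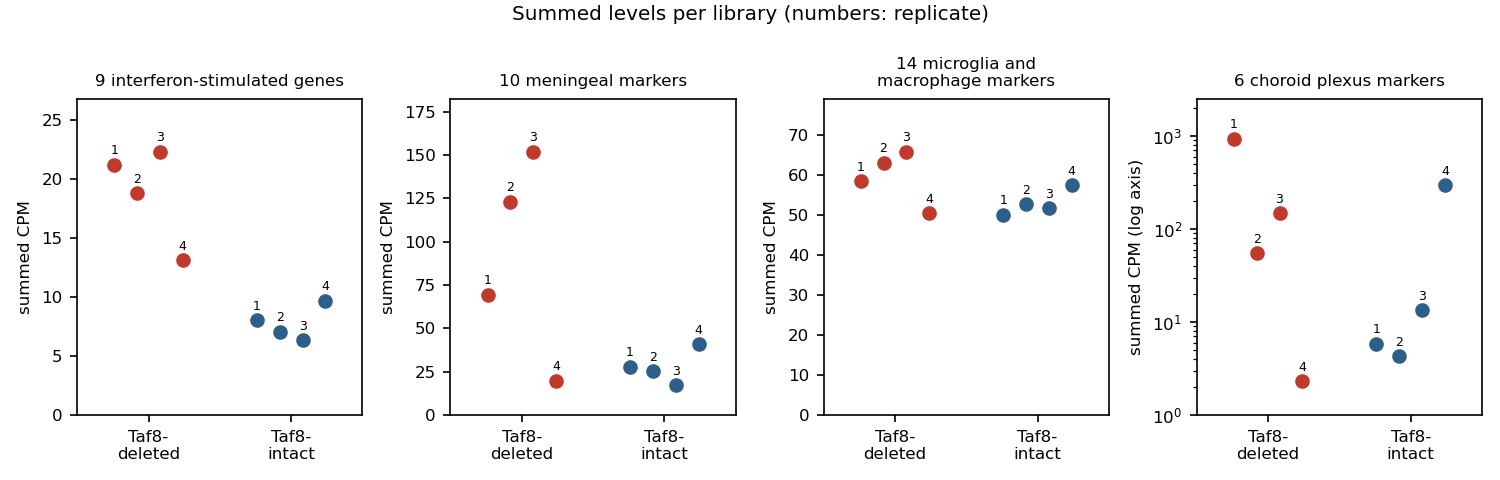
Summed CPM per library of the 9 genes and of markers of meninges, of microglia and macrophages, and of choroid plexus (log axis); numbers give the replicate. Deleted replicate 4 has more of the 9 genes than any intact library, at 13.1 CPM against 6.33 to 9.68 CPM. Without Isg15 the gap is smaller, at 9.30 CPM against 5.50 to 8.37 CPM (not plotted). This deleted library has meningeal and microglial markers inside the intact range and the fewest choroid plexus markers. Its endothelial and pericyte sums, not plotted, lie above every intact library.

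The wider set of interferon-stimulated genes moved mostly the same way. Of 49 further genes of this kind, 32 passed the filter, 19 rose and 2 fell, where the shares over all genes tested were 30.6% higher and 32.9% lower. Their median log2 fold change was 0.62, against 0.00 over all genes tested. The 2 that fell were Ifit2 and Ifitm2. Mx2, a gene of the dynamin-like antiviral GTPase family that GENCODE classes as a polymorphic pseudogene, had 26, 33, 31 and 30 counts in the deleted libraries, against 5, 2, 12 and 7 in the intact ones, with no overlap, and deleted replicate 4 was neither the lowest nor the highest of its group. Its log2 fold change was 2.14 ± 0.36 (SE; adjusted p = 0.000215, edgeR). Lgals9, a galectin gene, rose by 0.98 ± 0.16 (adjusted p = 0.000227, edgeR). Of genes chosen after their values were seen, Oas1b, also classed as a polymorphic pseudogene, rose to 0.830 ± 0.378 CPM, against 0.159 ± 0.0777 CPM in intact cortex (SD, n = 4 each; adjusted p = 0.000312, edgeR). Oasl1, the neighbour of Oasl2, had 10, 10, 12 and 6 counts in the deleted libraries, against 2, 1, 2 and 2 in the intact ones, too few to be fitted. Oas1 genes resemble each other, and their reads may have been shared. Mx2 and Oas1b, like Usp18, had few intact counts and passed the filter through their deleted libraries.

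**Figure D5:**
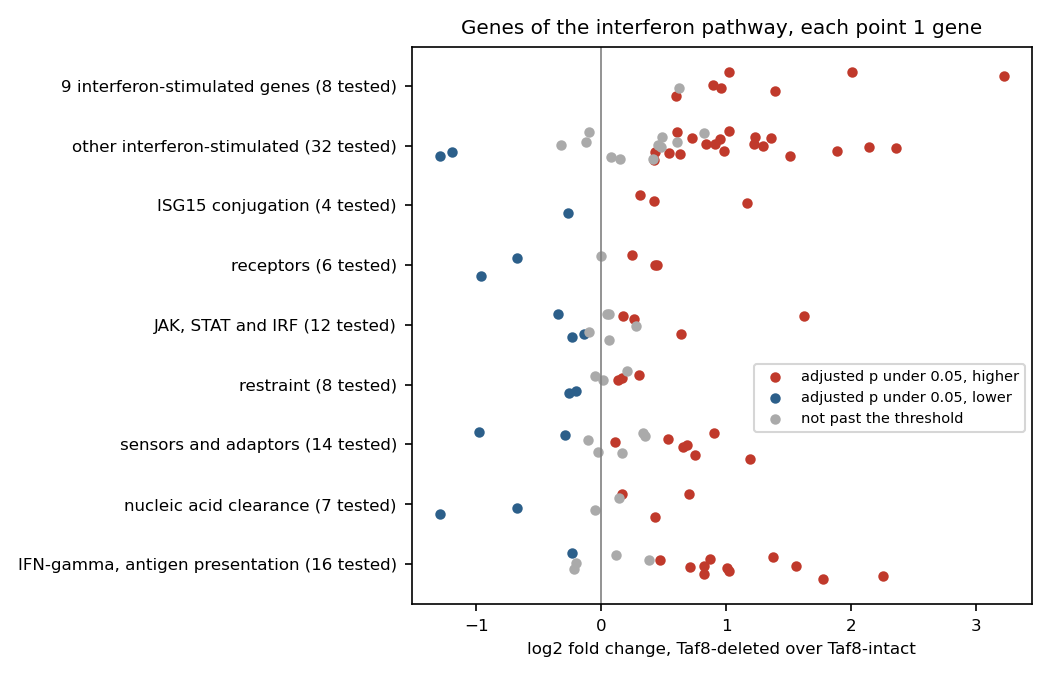
Log2 fold change, Taf8-deleted over Taf8-intact (horizontal axis), of each tested gene of the 9 and of 8 further lists (rows; the ligand list had no gene to test); red and blue points passed an adjusted p under 0.05, higher or lower, and grey ones did not. The further interferon-stimulated genes lie mostly to the right, apart from Ifit2 and Ifitm2, while receptors, JAK, STAT and IRF genes and restraining genes lie on both sides.

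Transcripts of the interferons themselves were not detected. Of 13 interferon genes, among them Ifnb1, Ifng and several Ifna genes, 12 had 0 counts in all 8 libraries, and Ifnk had 3 counts in total. A count of 0 in a library allows up to 0.0670 to 0.0758 CPM of the raw library total, so lower levels were not detectable at this depth.

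Receptor genes changed in both directions. Of 6, 3 rose and 2 fell, or 50% and 33.3%, against 30.6% and 32.9% of all genes tested. Ifnar1, a chain of the type I receptor, was at 161 ± 2.21 CPM in deleted and 136 ± 1.78 CPM in intact cortex (SD, n = 4 each), a log2 fold change of 0.24 ± 0.03 (SE; adjusted p = 1.52e-05, edgeR). Its partner Ifnar2, named after its values were seen to complete the pair, was at 20.1 CPM in both, with a log2 fold change of 0.00 and a 95% interval from -0.11 to 0.11. The receptor chains of interferon gamma went apart: Ifngr1 rose by 0.45 ± 0.09 and Ifngr2 fell by 0.67 on the log2 scale (SE 0.06). Ifnlr1, a chain of the lambda receptor, fell to 0.327 ± 0.0227 CPM, against 0.640 ± 0.0341 CPM in intact cortex.

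Stat2 fell by 0.23 on the log2 scale (SE 0.04; adjusted p = 0.000507, edgeR). Irf9, chosen with its values known because its protein partners STAT2, was at -0.10 ± 0.06 and did not pass the threshold (adjusted p = 0.164, edgeR). Of the 12 genes of JAK kinases, STAT factors and interferon regulatory factors other than Irf7, 4 rose and 3 fell, which is 33.3% and 25%, near the 30.6% and 32.9% of all genes tested. Irf8, which is known from microglia and other myeloid cells, rose most, to 4.48 ± 0.712 CPM, against 1.46 ± 0.246 CPM in intact cortex (SD, n = 4 each; log2 fold change 1.62 ± 0.16 SE). Irf3 rose by 0.26 ± 0.04 and Stat3 fell by 0.35 (SE 0.04). Among 8 genes that restrain the pathway, 3 rose and 2 fell, again near the shares of all genes tested, with Socs3 at 0.30 ± 0.06 and Pias1 at -0.26 ± 0.04. Exons of other genes overlap Stat3, Irf3 and Irf9.

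Several genes of RNA sensors rose, and genes that clear nucleic acids changed in both directions. Of 14 tested sensor and adaptor genes, 7 rose and 2 fell, or 50% and 14.3%, against 30.6% and 32.9% of all genes tested. Ifih1 and Ddx58, which encode the RNA sensors MDA5 and RIG-I and are themselves induced by interferon, rose by 0.90 ± 0.12 and 0.75 ± 0.14 on the log2 scale (SE; adjusted p of 3.13e-05 and 0.000576, edgeR). Eif2ak2, the kinase PKR, and the adaptor gene Myd88 rose by 0.68 ± 0.12 and 0.65 ± 0.15, while the adaptor gene Ticam1 and the kinase gene Ikbke fell by 0.29 and 0.98. Named after their values were seen, the DNA sensor gene Cgas and its partner Sting1 did not pass the threshold, at 0.34 ± 0.15 and -0.03 ± 0.19 (adjusted p of 0.0650 and 0.899, edgeR).

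Rnaseh2b, a subunit of the nuclease that removes ribonucleotides from DNA, fell to 15.4, 19.6, 17.4 and 19.0 CPM in the deleted libraries, against 42.2, 45.2, 42.8 and 44.8 CPM in the intact ones. The groups were far apart, with a log2 fold change of -1.29 ± 0.07 (SE; adjusted p = 1.37e-08, edgeR). Trex1, a DNA exonuclease gene, fell by 0.67 (SE 0.06; adjusted p = 6.48e-07, edgeR). Of the 7 genes of this list, these 2 fell and 3 rose, or 28.6% and 42.9%, against 32.9% and 30.6% of all genes tested. Those that rose included Rnaseh2c at 0.43 ± 0.07 and the lysosomal nuclease gene Dnase2a at 0.70 ± 0.13. Loss of function of RNASEH2B or TREX1 is known in humans to cause an inherited disease with interferon activation, which is background and not a result of these data. Exons of other genes overlap all 4 of these genes.

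Most tested genes of antigen presentation and of the response to interferon gamma rose as well. Of 23, 16 passed the filter, 11 rose and 1, Tapbp, fell. The shares were 68.8% higher and 6.25% lower, against 30.6% and 32.9% of all genes tested. The 4 that did not pass the threshold are named with their values known. These were Tap1 at -0.217, Tap2 at -0.205, Psmb8 at 0.115 and Nlrc5 at 0.381 on the log2 scale. Psmb10, a subunit of the immunoproteasome, was at 12.2 ± 0.643 CPM in deleted and 6.67 ± 0.868 CPM in intact cortex (SD, n = 4 each). H2-D1, a class I heavy chain, and the GTPase gene Irgm1 rose by 0.82 ± 0.09 and 1.38 ± 0.20 on the log2 scale (SE). H2-Eb1, a class II gene, had 64, 47, 66 and 47 counts in the deleted libraries, against 7, 10, 15 and 13 in the intact ones. Named after their values were seen, its class II partners H2-Aa and H2-Ab1 and the invariant chain gene Cd74 were below the filter in both groups, with at most 14 counts in a library. Class I genes resemble each other, and their reads may have been shared.

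Some genes outside the set followed the members closely from library to library. For this, each gene's deviations from its group means of log2 CPM were set against the mean deviations of the 6 members with enough counts, over 8 libraries, so that the difference between genotypes does not enter. Among 12237 genes ranked, those near the top included Man2b2, a lysosomal mannosidase gene, with a Pearson's r of 0.98, the ubiquitin ligase scaffold gene Cul7 at 0.98, Cib1 at 0.97 and the chemokine receptor gene Ackr3 at 0.965. They were picked by rank and carry no test. Ackr3 fell between genotypes, to 29.6 ± 1.58 CPM in deleted cortex, against 43.1 ± 2.09 CPM in intact cortex (SD, n = 4 each), although it varied with the members inside each group. The median r was -0.02 over all genes ranked and 0.63 over 12 further interferon-stimulated genes. Over markers of other cells it was 0.84 for 3 of choroid plexus, 0.73 for 5 of meninges, 0.73 for 6 of red cells, 0.67 for 8 of pericytes, 0.57 for 9 of endothelium and 0.555 for 8 of microglia and macrophages. All of these share the same 8 libraries.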

How the data were processed

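Per the labels, poly(A) RNA of embryonic cortex was isolated with an RNeasy kit and made into unstranded TruSeq libraries, 1 per embryo. The authors deposited raw counts per gene, by Entrez identifier. The submitters' processing notes name bcl2fastq 1.8.4, Subread 1.5.0, featureCounts and mm10; how reads shared between genes were counted is not given in the sources used here. Symbols were matched for 25275 of 27179 identifiers, and 1904 had none.

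From the deposited counts, genes were filtered with edgeR's filterByExpr and fitted by edgeR 4.0.16 (R 4.3.3) in a robust quasi-likelihood model of genotype alone over all 8 libraries, with TMM factors of 0.9714 to 1.028. P-values were adjusted by Benjamini-Hochberg over 16074 genes, with calls at an adjusted p under 0.05. The fit's biological coefficient of variation was 7.57%. CPM are counts scaled to the TMM-adjusted library total, and levels per kilobase use the deposited gene length. SEs come from the fold change and its F statistic. Intervals and floors cover counting error or the spread between these embryos only. No pair of libraries was a repeat deposit: the chi-square per gene with at least 20 counts was 4.22 to 14.6.

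The fit was run on simulated counts in which a small set of genes changed, as many up as down. Such a run cannot check the scaling in data where 63.5% of genes tested were called. DESeq2 1.42.0, limma 3.58.1, other size factors and filters, a replicate block, summed copies and left-out libraries were alternatives. Samples with the same replicate number did not deviate together. The members, gene lists and tests were chosen with earlier results of these data known. Named genes were the 9 members, Taf8, the up to 4 genes of smallest p and up to 2 of the opposite direction in each list, near-copies of members, and the 5 genes most like the members across libraries, by log2 CPM with a prior count of 2. Exon overlaps are from GENCODE M21 on GRCm38. Promoter windows are from RefSeq, GRCm38.p6, and were not used here for Usp18 and Rtp4. Some genes that this rule names are not reported here.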

Additional observations from a re-analysis of the deposited data

Results flagged for a closer look

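In 36 sets of 4 libraries, each member and each marker sum was searched for a library whose gap to its nearest neighbour, as a share of the set's range, passed Dixon's 95% critical value. Chance gives this in about 1 in 20 sets, and 4 were found. Usp18 was at 0.237 CPM in intact replicate 4, above the other intact libraries, and still below the lowest deleted library. Summed choroid plexus markers were at 930.4 CPM in deleted replicate 1, and at 296.5 CPM in intact replicate 4. Summed red cell markers were at 180.1 CPM in deleted replicate 4, the lowest of its group and inside the intact range.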

How the results depend on the processing

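Of the members, Isg15 and Oasl2 stayed past the threshold under all 20 alternatives, and Usp18 under all 19 that could fit it. Leaving out 1 library gave 6 to 7 members called higher and 0 called lower. It gave 43 to 56 wider interferon genes called higher and 14 to 15 lower, and 4617 to 5024 genes higher and 4876 to 5103 lower over all genes. Without deleted replicates 2 and 3, 34 wider interferon genes were called higher, against 52 with all libraries. With deleted replicate 4 as the only deleted library, an alternative chosen after seeing the data, 3 members, 15 wider interferon genes and 3201 genes in all were called higher and 3399 lower, and Irf7 turned to -0.10 (adjusted p = 0.842, edgeR). That setting has 5 libraries instead of 8, and the cause was not tested further. Same-numbered libraries had correlations of -0.455 to 0.00519, so the numbers did not pair them. With the replicate block 6 members were called higher, and Irf7 was at 0.58 (adjusted p = 0.107, edgeR). The block gave 43 wider interferon genes higher and 15 lower. limma voom also lost Irf7 (adjusted p = 0.0578). With no filter on low counts, Ifit1 was at 2.20 (adjusted p = 0.0330, edgeR). Genes with few counts, Ifit1 and Ifit3 above all, are limited by depth.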
